A study of Homo sapiens with 12 samples.

Results

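The genes described here are 35 components and targets of the Hippo pathway, chosen as a named list of gene symbols and found among the 23583 features of the deposited gene table. They comprise 7 effectors and their partners (YAP1, WWTR1, TEAD1 to TEAD4 and VGLL4), 7 genes of the kinase cascade (LATS1, LATS2, STK3, STK4, SAV1, MOB1A and MOB1B), 10 upstream regulators (NF2, WWC1, WWC2, FAT1, FAT4, AMOT, AMOTL1, AMOTL2, AJUBA and PTPN14) and 11 targets of YAP (CYR61, CTGF, ANKRD1, AXL, MYOF, NUAK2, CRIM1, FJX1, NT5E, ARHGEF17 and F3). RNA sequencing had been done on a pair of human hepatocellular carcinoma cell lines, HCCLM3 and Huh7, to see what silencing of the circular RNA circASH2 does to gene expression, with metastasis as the stated interest. The 12 libraries fell into 4 groups of 3: HCCLM3 with si-circASH2, HCCLM3 with the control siRNA si-NC, Huh7 with si-circASH2, and Huh7 with si-NC. HCCLM3 is a line selected for high metastatic capacity, and Huh7 is a line that keeps many hepatocyte traits. The labels gave neither the siRNA sequences nor the time between transfection and harvest, and no feature of the table measures circASH2 itself, so the extent of the knockdown was not analysed here.

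All 35 genes passed the filter on low counts, which was run over all 12 libraries together. FAT4 and AMOT passed it through their counts in Huh7. With HCCLM3 filtered and fitted alone, 33 of the 35 had a value, and FAT4 and AMOT did not. Both stay among the 35 in the counts given for HCCLM3. Each library held 29006781 to 30858895 counts, so 3 counts amounted to 0.0981 to 0.105 CPM (counts scaled to library size). Whether the 3 libraries of each group were grown as separate cultures is not stated in the labels, so p-values here refer to the variation among these libraries, possibly technical only. The values are RNA levels of bulk cells, in which fewer cells of one kind and less RNA per cell cannot be told apart. The lines differed widely in liver markers: 10 hepatocyte markers summed to 186 to 193 CPM in HCCLM3 si-NC libraries, against 28694 to 28758 CPM in Huh7 si-NC libraries. Albumin (ALB) averaged 3.24 ± 1.06 CPM in HCCLM3 si-NC and 9864 ± 268 CPM in Huh7 si-NC (SD, n = 3 each), SERPINA1 was at or near 0 in HCCLM3 si-NC (0 to 0.07 CPM), and HNF4A averaged 94.9 ± 2.58 CPM in HCCLM3 si-NC and 242 ± 5.12 CPM in Huh7 si-NC.

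The Hippo pathway restrains tissue growth. The kinases encoded by STK3 and STK4, held by the scaffold SAV1, activate LATS1 and LATS2 together with the MOB1 proteins, and the LATS kinases phosphorylate YAP and its paralogue TAZ (the product of WWTR1), which keeps them out of the nucleus. When the kinases are inactive, YAP and TAZ enter the nucleus, bind the TEAD transcription factors and switch on genes such as CTGF, CYR61 and ANKRD1. In liver the pathway limits organ size, and YAP activity is a known driver of liver cancer in mice. The RNA level of these genes does not show how much YAP protein is phosphorylated or nuclear, which was not measured.

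TEAD factors recognise the letters GGAATG, which read as CATTCC on the other strand, and these letters were looked for on both strands in the RefSeq promoters (build GRCh38.p14), 250 bases before to 50 after each start. Promoters were found for 28 of the 35 genes; TEAD1, TEAD4, STK3, FAT4, CYR61, CRIM1 and ARHGEF17 were unmatched. The letters stood in 10 of 41 promoters of these 28 genes (24.4%), against 14.0% of all 35116 promoters. By role they stood in 4 of 9 promoters of targets, 4 of 13 of upstream regulators, 1 of 8 of the kinase cascade and 1 of 11 of effectors. The AP-1 letters TGACTCA, which read as TGAGTCA on the other strand, often accompany TEAD sites and hold no copy of the TEAD letters; they stood in 1 promoter, that of F3, against 4.95% of all promoters. The 250 bases before the start are shown for 4 targets, since these differ in their letters and in their response described below; all 4 genes lie on the minus strand, the sequences run 5′ to 3′ on that strand, and capitals mark GGAATG or CATTCC. CTGF lies at chr6:131951373-131951622 with matches that begin 169, 104 and 95 bases upstream, ANKRD1 at chr10:90921088-90921337 with matches at 220 and 128, NUAK2 at chr1:205321746-205321995 with matches at 197 and 18, and MYOF at chr10:93482335-93482584 with no match in this window.
CTGF: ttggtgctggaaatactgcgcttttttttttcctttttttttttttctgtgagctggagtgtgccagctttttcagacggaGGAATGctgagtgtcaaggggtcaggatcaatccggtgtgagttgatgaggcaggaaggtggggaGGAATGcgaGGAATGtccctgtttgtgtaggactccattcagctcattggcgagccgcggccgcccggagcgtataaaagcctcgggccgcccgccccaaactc
ANKRD1: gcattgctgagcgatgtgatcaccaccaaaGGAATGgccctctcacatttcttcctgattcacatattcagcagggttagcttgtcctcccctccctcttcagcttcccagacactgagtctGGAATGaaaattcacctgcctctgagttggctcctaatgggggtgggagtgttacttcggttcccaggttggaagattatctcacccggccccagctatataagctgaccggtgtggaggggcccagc
NUAK2: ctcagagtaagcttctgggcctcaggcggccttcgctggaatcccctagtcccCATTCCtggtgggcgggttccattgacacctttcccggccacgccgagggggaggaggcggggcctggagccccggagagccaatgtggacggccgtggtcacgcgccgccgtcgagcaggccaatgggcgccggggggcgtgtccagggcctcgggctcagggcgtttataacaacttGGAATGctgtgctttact
MYOF: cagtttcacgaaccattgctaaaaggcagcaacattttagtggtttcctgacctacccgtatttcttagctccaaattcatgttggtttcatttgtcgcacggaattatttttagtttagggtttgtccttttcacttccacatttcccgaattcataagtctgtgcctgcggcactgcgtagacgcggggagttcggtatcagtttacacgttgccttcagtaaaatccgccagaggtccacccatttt
A match is a run of letters, not a measured binding site. After si-circASH2, CTGF rose in Huh7 and ANKRD1 in both lines, while NUAK2 passed the test in neither line. MYOF, with no match in its window, rose in Huh7 and fell in HCCLM3, a fall lost in some alternative fits given below. Of the other targets with promoters, AXL had a match and rose in HCCLM3. NT5E, FJX1 and F3 had none: NT5E fell in both lines, FJX1 rose in Huh7 and F3 passed in neither. Whether the letters go with the response was not tested.

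The control libraries showed a different make-up of the pathway in each line. In HCCLM3 si-NC relative to Huh7 si-NC, 15 of the 35 genes were higher and 16 lower at an adjusted p under 0.05 in edgeR's quasi-likelihood test. The background was high: 41.6% of all features tested were higher and 43.6% lower, so these counts are not particular to the pathway. WWTR1, which encodes TAZ, stood out among the effectors: 140, 134 and 131 CPM in HCCLM3 si-NC, against 21.1, 17.6 and 21.3 CPM in Huh7 si-NC. Its log2 difference was 2.75 ± 0.06 (HCCLM3 over Huh7, SE, adjusted p = 6.29e-23). YAP1 differed little, by 0.35 ± 0.04 (adjusted p = 2.62e-08). Levels of different genes can be compared only per length, and for this the deposited FPKM, fragments scaled to transcript length and library size, were used. The FPKM of YAP1 was 0.829 to 0.919 times that of WWTR1 in HCCLM3 si-NC libraries, against 4.42 to 5.69 times in Huh7 si-NC libraries. By this measure WWTR1 RNA was slightly above YAP1 RNA in HCCLM3 si-NC and below it in Huh7 si-NC. In HCCLM3 si-NC the CPM were alike (135 ± 4.59 for WWTR1, 136 ± 0.247 for YAP1, SD, n = 3 each). The order there thus rests on the transcript lengths behind the FPKM, which are not stated. If counts and FPKM came from the same reads, a shorter length was taken for WWTR1 (FPKM 28.3 ± 1.75) than for YAP1 (24.4 ± 1.11). GENCODE 29 gives WWTR1 more exon bases than YAP1 (8413 and 6296), which would put YAP1 first.

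The TEAD genes also differed in their shares. TEAD1 made up 40.3 ± 0.818% of the summed TEAD FPKM in HCCLM3 si-NC and 20.5 ± 1.21% in Huh7 si-NC, while TEAD2 made up 24.3 ± 1.38% in HCCLM3 si-NC and 38.5 ± 0.863% in Huh7 si-NC (SD, n = 3 each). TEAD3 averaged 14.7 ± 0.378 CPM in HCCLM3 si-NC and 29.5 ± 0.681 CPM in Huh7 si-NC, and TEAD4 did not pass the test (0.12 ± 0.08, adjusted p = 0.143). Among the kinases, LATS2 averaged 8.58 ± 0.367 CPM in HCCLM3 si-NC and 23.0 ± 0.567 CPM in Huh7 si-NC, and STK3, which encodes the kinase MST2, averaged 38.9 ± 1.52 CPM in HCCLM3 si-NC and 15.5 ± 1.93 CPM in Huh7 si-NC. Thus 3 kinase cascade genes were higher in HCCLM3 (STK3, STK4 and MOB1B) and 3 lower (LATS1, LATS2 and MOB1A). That is 42.9% each way, near the 41.6% and 43.6% of all features tested. SAV1 did not pass (-0.19 ± 0.10, edgeR adjusted p = 0.0873). Its adjusted p was 0.028 without HCCLM3 si-NC replicate 2, in a range of 0.028 to 0.677 over 12 alternatives. MOB1A lost its call without Huh7 si-NC replicate 1 or 3 or HCCLM3 si-NC replicate 1 or 3 (adjusted p = 0.0559 to 0.117), and under the block and both FPKM fits, in a range of 0.00849 to 0.151 over 12 alternatives.

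Of the large cadherins, FAT1 averaged 717 ± 23.5 CPM in HCCLM3 si-NC and 75.3 ± 1.66 CPM in Huh7 si-NC, whereas FAT4 had 0, 3 and 4 counts in HCCLM3 si-NC, against 345, 354 and 332 counts in Huh7 si-NC. AMOT, whose product tethers YAP at cell junctions, had 0, 0 and 4 counts in HCCLM3 si-NC, against 50, 59 and 59 counts in Huh7 si-NC. Both genes were thus close to or below the counting floor in HCCLM3. AMOTL1, a relative of AMOT, was lower in HCCLM3 si-NC too (-2.90 ± 0.10, edgeR adjusted p = 1.22e-18).

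Of the 11 targets 5 were higher in HCCLM3 si-NC and 5 lower, and F3, the gene of tissue factor, did not pass (0.02 ± 0.09). That is 45.5% each way, near the 41.6% of all features tested that were higher and 43.6% lower. The split is thus not particular to the targets. The receptor tyrosine kinase gene AXL had 55.6, 53.7 and 56.6 CPM in HCCLM3 si-NC, against 0.426, 0.367 and 0.852 CPM in Huh7 si-NC (log2 difference 6.64 ± 0.15). MYOF, which encodes the membrane repair protein myoferlin, had 422, 448 and 413 CPM in HCCLM3 si-NC, against 9.28, 9.75 and 10.4 CPM in Huh7 si-NC (5.45 ± 0.06). CTGF, a secreted matricellular protein gene and a standard readout of YAP, ran the other way: 14.3, 15.1 and 13.1 CPM in HCCLM3 si-NC, against 138, 134 and 121 CPM in Huh7 si-NC (-3.21 ± 0.06). ARHGEF17 averaged 0.737 ± 0.231 CPM in HCCLM3 si-NC and 23.5 ± 0.987 CPM in Huh7 si-NC. NUAK2, an AMPK-related kinase gene, was called higher in HCCLM3 si-NC (0.39 ± 0.15, adjusted p = 0.0221), but not without Huh7 si-NC replicate 1 (0.20, adjusted p = 0.188) or HCCLM3 si-NC replicate 2 (adjusted p = 0.0764), in a range of 0.00121 to 0.188 over its 12 alternatives.

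**Figure D1:**
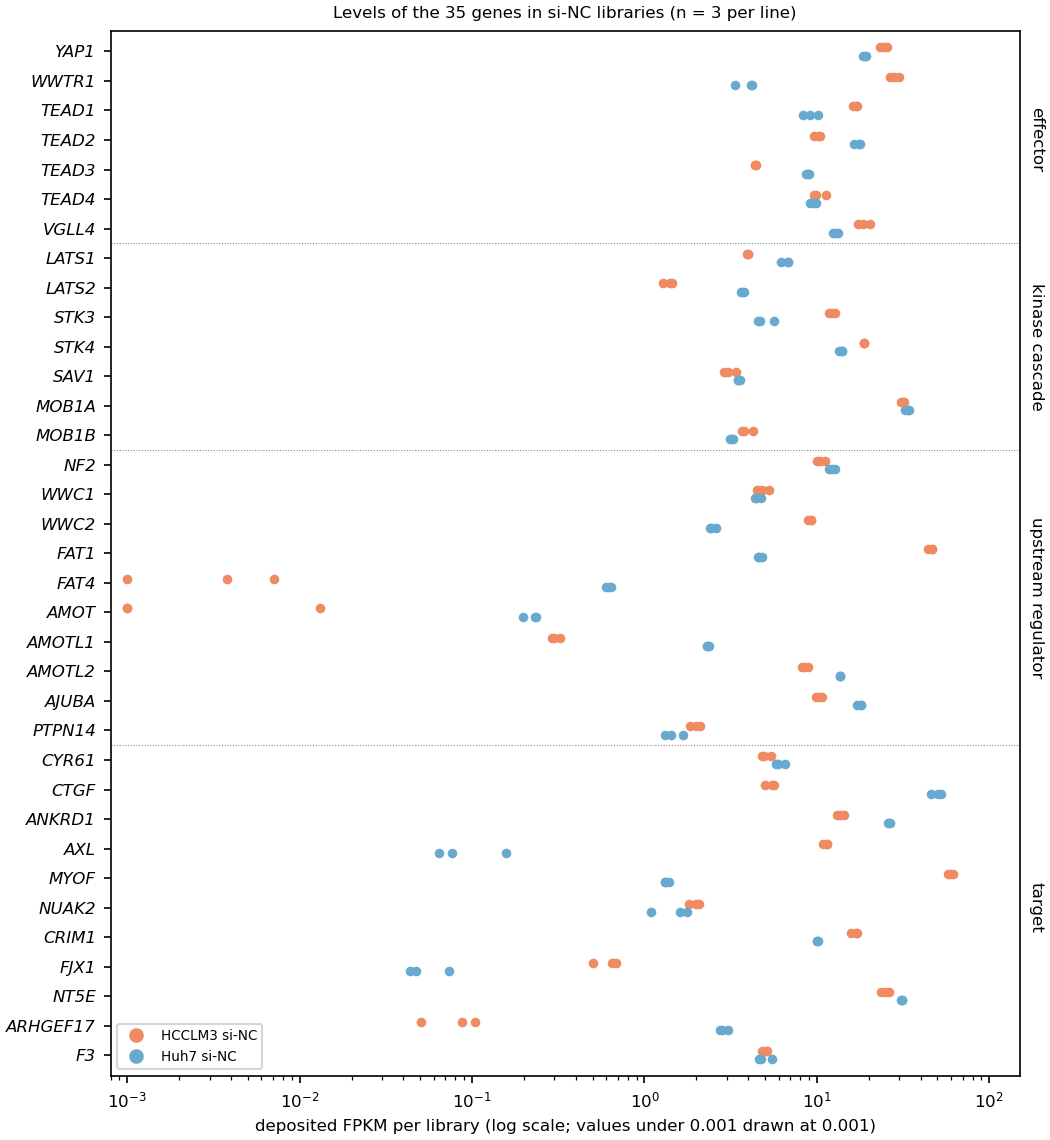
Deposited FPKM (log axis) of the 35 genes, by role, in each si-NC library: HCCLM3 si-NC above Huh7 si-NC, 3 points each, with values under 0.001 drawn at 0.001. WWTR1, FAT1, AXL and MYOF lie to the right in HCCLM3, and CTGF, ARHGEF17, FAT4, AMOT and AMOTL1 lie to the right in Huh7.

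After si-circASH2 the lines differed in what moved. In HCCLM3, 6 of the 35 genes rose and 10 fell (17.1% and 28.6%), where 15.1% of all features tested rose and 15.5% fell. In Huh7, 11 rose and 4 fell (31.4% and 11.4%), where 16.3% of all features rose and 15.1% fell. The median log2 fold change of the 35 genes was -0.01 in HCCLM3 and 0.09 in Huh7, beside 0.00 and 0.01 over all features tested. The 3 si-circASH2 libraries lay entirely above the 3 si-NC libraries for 8 genes in HCCLM3 (21.8% of all features) and 13 in Huh7 (22.4%). They lay entirely below for 11 genes in HCCLM3 (21.9%) and 6 in Huh7 (20.3%). Of these counts the 8 and the 6 are near the shares of all features. Among the 8 is FAT4, whose lowest si-circASH2 library and highest si-NC library both had 4 counts, set apart only by library scaling. LATS2, AMOTL1, CYR61 and ANKRD1 rose in both lines, and MOB1A, NF2 and NT5E fell in both. YAP1, AMOTL2 and MYOF fell in HCCLM3 and rose in Huh7. Some alternative fits, given below, lost the Huh7 calls of YAP1 and AMOTL2 and the HCCLM3 calls of MYOF, LATS2 and NF2. The shares of all features with these patterns over both lines were not counted, so the patterns are not shown to be unusual.

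**Figure D2:**
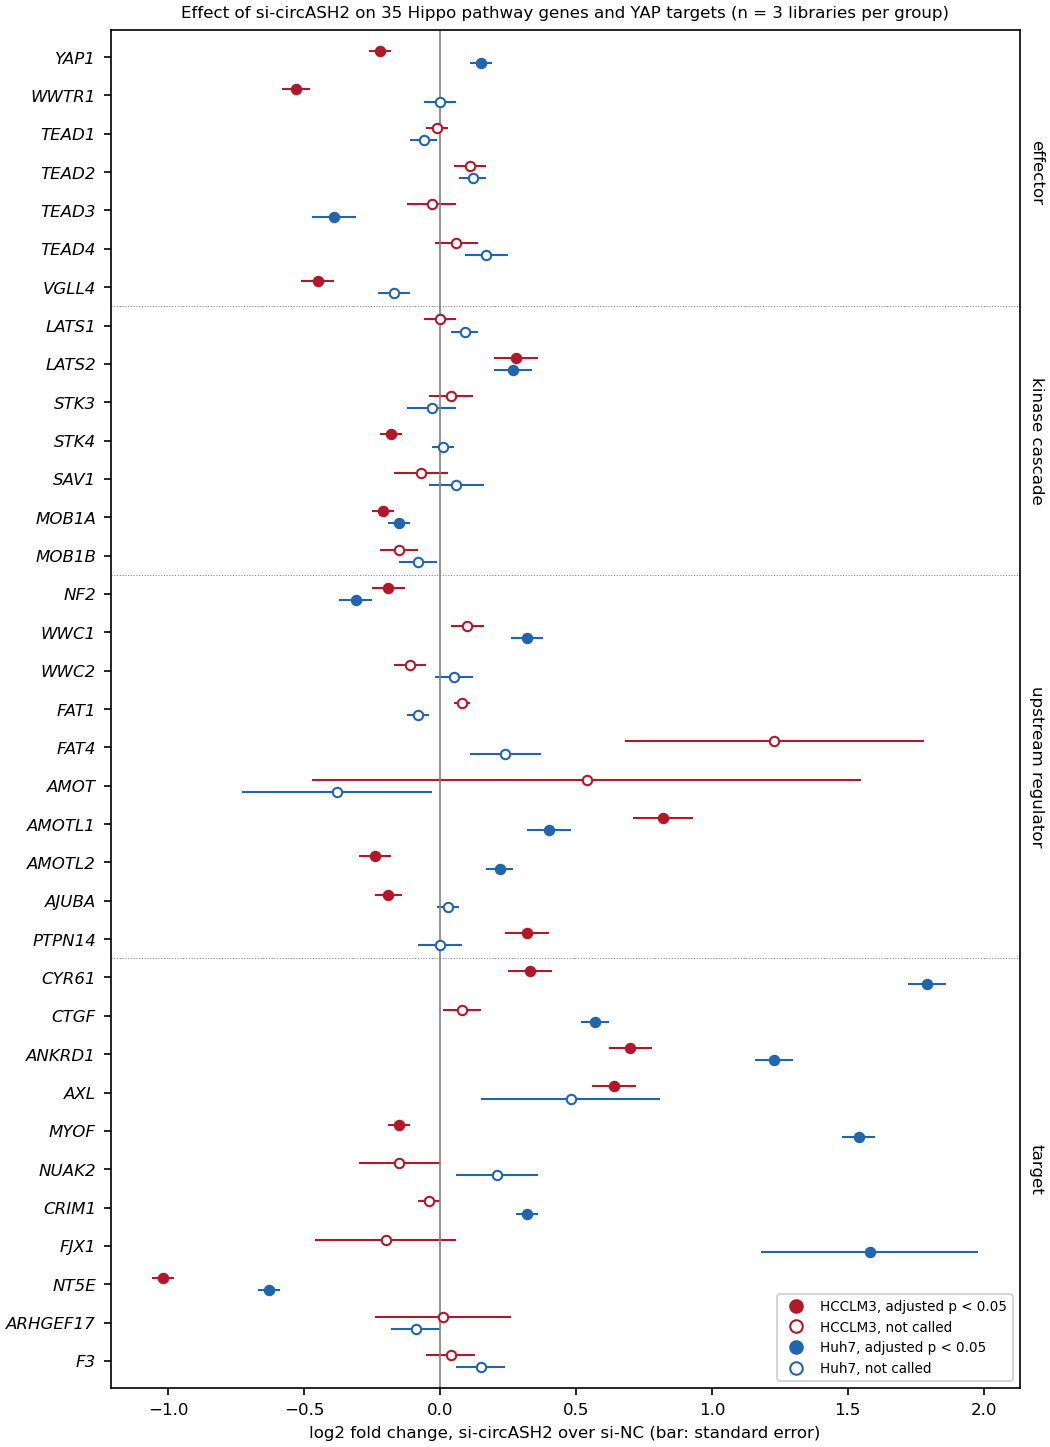
Log2 fold change of the 35 genes, si-circASH2 over si-NC, by role, with HCCLM3 drawn above Huh7 and bars for the standard error (n = 3 libraries per group); filled points have an adjusted p under 0.05 in edgeR's quasi-likelihood test. CYR61, ANKRD1, MYOF and FJX1 lie beyond 1 in Huh7, NT5E lies left of 0 in both lines, and the wide bars of FAT4 and AMOT in HCCLM3 go with counts near 0.

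Among the effectors, both coactivator genes fell in HCCLM3: 3 of 7 effector genes fell there and 4 did not pass, while in Huh7 1 rose, 1 fell and 5 did not pass. The falls in HCCLM3 were 42.9% of the effectors, beside 15.5% of all features tested, and in Huh7 the 14.3% in each direction were near the 16.3% of all features that rose and 15.1% that fell. YAP1 (chromosome 11, 102110461 to 102233423, GENCODE 29 on GRCh38) had 115, 121 and 114 CPM in HCCLM3 si-circASH2 libraries, against 136, 136 and 136 CPM in HCCLM3 si-NC libraries. All 3 knockdown libraries were below the controls, and the log2 fold change was -0.22 ± 0.04 (SE, edgeR adjusted p = 0.000181). In Huh7 the same gene had 121, 113 and 120 CPM with si-circASH2, against 112, 104 and 104 CPM with si-NC. The Huh7 groups were close but did not overlap, and YAP1 rose by 0.15 ± 0.04 (adjusted p = 0.00826). That rise was not called with limma on log2(FPKM + 0.1) or log2(FPKM + 1) (adjusted p = 0.103 and 0.1) or without Huh7 si-NC replicate 2 (0.0501), in a range of 0.00316 to 0.103 over 13 alternatives.

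WWTR1 (chromosome 3, 149517235 to 149736714) had 93.7, 91.1 and 95.8 CPM in HCCLM3 si-circASH2, against 140, 134 and 131 CPM in HCCLM3 si-NC, well apart, and fell by 0.53 ± 0.05 on the log2 scale (SE; edgeR, adjusted p = 1.68e-08). In Huh7 it had 19.7, 19.9 and 20.2 CPM with si-circASH2, within the 21.1, 17.6 and 21.3 CPM of si-NC, and did not pass (-0.00 ± 0.06, adjusted p = 0.993). The FPKM of YAP1 relative to WWTR1 was 0.963 to 1.09 in HCCLM3 si-circASH2, against 0.829 to 0.919 in HCCLM3 si-NC. Without strand information, reads of WWTR1-AS1, an antisense gene that shares 9.45% of the exon bases of WWTR1, cannot be told apart from WWTR1 reads, and AP000942.2 likewise covers 9.97% of those of YAP1.

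VGLL4, whose product competes with YAP for TEAD factors, had 46.0, 44.3 and 44.0 CPM in HCCLM3 si-circASH2, against 67, 57.4 and 59.1 CPM in HCCLM3 si-NC. The groups were apart, and it fell by 0.45 ± 0.06 on the log2 scale (SE; edgeR, adjusted p = 4.34e-06); ATG7, on the opposite strand, shares 22.1% of its exon bases. In Huh7 VGLL4 had 34.0, 34.4 and 31.9 CPM with si-circASH2, against 38.6, 40 and 34.1 CPM with si-NC, overlapping, and just missed the threshold (-0.17 ± 0.06, adjusted p = 0.0518). It passed in Huh7 under 6 of 13 alternatives, among them leaving out si-NC replicate 3 (adjusted p = 0.00964), in a range of 0.00964 to 0.233.

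Of the TEAD genes, only TEAD3 in Huh7 passed the test. In HCCLM3 TEAD3 had 14.5, 14.5 and 14.3 CPM with si-circASH2, overlapping the 14.4, 15.1 and 14.7 CPM with si-NC (-0.03 ± 0.09). It had 26.5, 20.4 and 20.5 CPM in Huh7 si-circASH2, against 30.3, 29 and 29.1 CPM in Huh7 si-NC, and fell by 0.39 ± 0.08 on the log2 scale (SE; edgeR, adjusted p = 0.000429). All 3 knockdown libraries were lower, with the replicate of 26.5 CPM nearest to the controls. Its share of the summed TEAD FPKM was 14.9 ± 1.47% in Huh7 si-circASH2 and 19.8 ± 0.901% in Huh7 si-NC (SD, n = 3 each).

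The other TEAD genes did not pass, with log2 fold changes of -0.06 to 0.17. TEAD1 had 135, 136 and 132 CPM in HCCLM3 si-circASH2, against 137, 136 and 133 CPM in HCCLM3 si-NC, and in Huh7 70.0, 68.6 and 75.0 CPM with si-circASH2, against 79.8, 72.9 and 70.0 CPM with si-NC. TEAD2 had 27.6, 28.7 and 29.3 CPM in HCCLM3 si-circASH2, against 25.0, 26.5 and 27.6 CPM in HCCLM3 si-NC, and in Huh7 50.5, 48.9 and 46.9 CPM with si-circASH2, against 45.2, 46.4 and 43.3 CPM with si-NC. The Huh7 groups of TEAD2 did not overlap, yet its adjusted p was 0.102. TEAD4 had 20.0, 19.1 and 20.1 CPM in HCCLM3 si-circASH2, against 20.6, 18.1 and 17.9 CPM in HCCLM3 si-NC, and in Huh7 21.6, 18.0 and 19.1 CPM with si-circASH2, against 18.0, 17.4 and 16.7 CPM with si-NC. Its groups overlapped in both lines; in Huh7 it passed only without si-circASH2 replicate 2 (adjusted p = 0.0446, range 0.0446 to 0.429 over 13 alternatives).

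In the kinase cascade the changes were small and of mixed direction. In HCCLM3 1 of 7 genes rose, 2 fell and 4 did not pass; in Huh7 1 rose, 1 fell and 5 did not pass. With 7 genes, 1 call is 14.3%, near the share of all features tested that rose (15.1% in HCCLM3, 16.3% in Huh7) or fell in Huh7 (15.1%), and the 2 falls in HCCLM3 are 28.6%, beside 15.5%. LATS2, which encodes a kinase of YAP and is itself a known YAP target, had 9.56, 10.7 and 11.0 CPM in HCCLM3 si-circASH2, against 8.81, 8.15 and 8.76 CPM in HCCLM3 si-NC (0.28 ± 0.08, edgeR adjusted p = 0.00931). In Huh7 it had 27.5, 28.1 and 27.7 CPM with si-circASH2, against 22.6, 23.6 and 22.7 CPM with si-NC (0.27 ± 0.07, adjusted p = 0.0029). Both rises were of like size with no overlap of libraries; the one in HCCLM3 was lost without si-circASH2 replicate 3 (adjusted p = 0.0522, range 0.00498 to 0.0522 over 13 alternatives). MOB1A, an activator of the LATS kinases, averaged 150 ± 4.73 CPM in HCCLM3 si-circASH2 and 173 ± 3.82 CPM in HCCLM3 si-NC, and 166 ± 6.87 CPM in Huh7 si-circASH2 and 185 ± 3.73 CPM in Huh7 si-NC (SD, n = 3 each). It fell in both lines, by 0.21 ± 0.04 in HCCLM3 and 0.15 ± 0.04 in Huh7 on the log2 scale. STK4, the gene of the kinase MST1, fell in HCCLM3 (-0.18 ± 0.04, adjusted p = 0.000376) and did not pass in Huh7 (0.01 ± 0.04). LATS1, STK3, SAV1 and MOB1B passed in neither line, with log2 fold changes of -0.15 to 0.09.

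Among the 10 upstream regulators, the largest change that passed edgeR's test in each line was that of AMOTL1. AMOTL1, which like AMOT binds YAP at junctions, had 5.86, 4.74 and 5.77 CPM in HCCLM3 si-circASH2, against 2.89, 3.11 and 3.27 CPM in HCCLM3 si-NC, and rose by 0.82 ± 0.11 (edgeR adjusted p = 4.96e-06). In Huh7 it had 28.2, 31.5 and 31.9 CPM with si-circASH2, against 23.2, 23.5 and 22.5 CPM with si-NC (0.40 ± 0.08, adjusted p = 0.000218). All knockdown libraries of both lines were above their controls. AMOTL2, another angiomotin and a known YAP target, averaged 35.6 ± 2.08 CPM in HCCLM3 si-circASH2 and 42.0 ± 0.818 CPM in HCCLM3 si-NC, and fell by 0.24 ± 0.06 (log2). In Huh7 it averaged 79.1 ± 6.80 CPM with si-circASH2 and 67.7 ± 1.17 CPM with si-NC, a rise of 0.22 ± 0.05 that missed the threshold with limma on log2(FPKM + 0.1) (adjusted p = 0.059, range 0.001 to 0.059 over 13 alternatives). AMOT averaged 1.42 ± 0.211 CPM in Huh7 si-circASH2 and 1.85 ± 0.181 CPM in Huh7 si-NC and did not pass (adjusted p = 0.449).

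NF2, the gene of the tumour suppressor merlin, fell in both lines. It had 55.5, 63.3 and 61.2 CPM in HCCLM3 si-circASH2, against 71.7, 66.7 and 67.2 CPM in HCCLM3 si-NC (-0.19 ± 0.06, edgeR adjusted p = 0.0112). In Huh7 it had 70.6, 59.7 and 63.7 CPM with si-circASH2, against 78.9, 79.9 and 80.9 CPM with si-NC (-0.31 ± 0.06, adjusted p = 0.000148). The libraries did not overlap in either line, but the fall in HCCLM3 was lost without si-circASH2 replicate 1 (adjusted p = 0.0809), without si-NC replicate 1 (0.0628) and with both FPKM fits (0.224 and 0.221), in a range of 0.00198 to 0.224 over 13 alternatives.

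WWC1, which encodes the scaffold KIBRA, had 27.6, 27.6 and 27.1 CPM in HCCLM3 si-circASH2, against 26.2, 25.4 and 25.0 CPM in HCCLM3 si-NC, without overlap, but did not pass (0.10 ± 0.06, edgeR adjusted p = 0.217). Its Huh7 values were 35, 33.6 and 33.5 CPM with si-circASH2, against 27.5, 29 and 25.4 CPM with si-NC, also without overlap (0.32 ± 0.06, adjusted p = 0.000168). PTPN14, a phosphatase that binds YAP in the cytoplasm, had 35.1, 38.8 and 34.8 CPM in HCCLM3 si-circASH2, against 28.7, 31.5 and 26.8 CPM in HCCLM3 si-NC (0.32 ± 0.08, adjusted p = 0.00225). In Huh7 PTPN14 had 20.4, 22.5 and 22.0 CPM with si-circASH2, inside the 24.5, 19.5 and 20.9 CPM of si-NC. AJUBA, a LIM protein gene whose product inhibits LATS kinases, fell in HCCLM3 (-0.19 ± 0.05, adjusted p = 0.00215) and did not pass in Huh7 (0.03 ± 0.04).

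WWC2 and the cadherin genes FAT1 and FAT4 passed in neither line. FAT1 reached an adjusted p of 0.0957 in HCCLM3 (0.08 ± 0.03; 0.0369 with HCCLM3 fitted alone) and 0.122 in Huh7 (-0.08 ± 0.04; 0.0477 without si-circASH2 replicate 1); its alternatives ranged over 0.0369 to 0.334 in HCCLM3 and 0.0477 to 0.334 in Huh7. FAT4 had 4, 8 and 5 counts in HCCLM3 si-circASH2, against 0, 3 and 4 in HCCLM3 si-NC, and averaged 13.4 ± 0.279 CPM in Huh7 si-circASH2 and 11.3 ± 0.467 CPM in Huh7 si-NC (adjusted p = 0.187). In all, 2 upstream regulators rose and 3 fell in HCCLM3, with 5 not passing (20% and 30%, beside 15.1% and 15.5% of all features tested), and 3 rose and 1 fell in Huh7, with 6 not passing (30% and 10%, beside 16.3% and 15.1%).

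In HCCLM3 3 of the 11 targets rose (CYR61, ANKRD1 and AXL), 2 fell (MYOF and NT5E) and 6 did not pass, with a median log2 fold change of 0.01; the 27.3% that rose and 18.2% that fell stand beside 15.1% and 15.5% of all features tested. In Huh7 6 rose (CYR61, CTGF, ANKRD1, MYOF, CRIM1 and FJX1), 1 fell (NT5E) and 4 did not pass, with a median of 0.48; here 54.5% rose and 9.09% fell, beside 16.3% and 15.1% of all features tested. CYR61 (chromosome 1, 85580761 to 85583962), which encodes a secreted matricellular protein that binds integrins, had 16.4, 15.5 and 17.3 CPM in HCCLM3 si-circASH2, against 12.2, 14.2 and 12.7 CPM in HCCLM3 si-NC, without overlap (0.33 ± 0.08, edgeR adjusted p = 0.003). Huh7 libraries had 51.6, 59.5 and 52.0 CPM with si-circASH2, against 15.3, 17.0 and 14.9 CPM with si-NC. The Huh7 groups were far apart, and CYR61 rose by 1.79 ± 0.07 (log2, adjusted p = 1.46e-14).

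CTGF (chromosome 6, 131948176 to 131951373), the paralogue of CYR61 whose upstream sequence carries 3 of the TEAD runs shown above, had 14.2, 15.4 and 15.2 CPM in HCCLM3 si-circASH2, overlapping the 14.3, 15.1 and 13.1 CPM of HCCLM3 si-NC, and did not pass (0.08 ± 0.07, edgeR adjusted p = 0.425). In Huh7 CTGF had 189.8, 203 and 189.7 CPM with si-circASH2, against 138, 134 and 121 CPM with si-NC, without overlap (0.57 ± 0.05, adjusted p = 2.81e-09). ANKRD1 (chromosome 10, 90912096 to 90921276), a nuclear ankyrin repeat protein gene, rose in both lines. It had 52.6, 49.0 and 46.8 CPM in HCCLM3 si-circASH2, against 31.5, 29.7 and 30.4 CPM in HCCLM3 si-NC (0.70 ± 0.08, adjusted p = 1.89e-06). In Huh7 it had 124, 157 and 131 CPM with si-circASH2, against 57.8, 60.1 and 58.3 CPM with si-NC (1.23 ± 0.07, adjusted p = 5.69e-10). Every knockdown library exceeded its controls, with the widest spread in Huh7 si-circASH2.

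MYOF (chromosome 10, 93306429 to 93482317) went opposite ways. In HCCLM3, where the gene was far more abundant, it had 389, 393 and 372 CPM with si-circASH2, against 422, 448 and 413 CPM with si-NC (-0.15 ± 0.04, edgeR adjusted p = 0.00761). Huh7 libraries had 27.5, 30.8 and 27.1 CPM with si-circASH2, against 9.28, 9.75 and 10.4 CPM with si-NC (1.54 ± 0.06, adjusted p = 5.55e-15). The libraries did not overlap in either line, but the fall in HCCLM3 was lost without si-NC replicate 2 (adjusted p = 0.0662) and with both FPKM fits (0.128 and 0.0764), in a range of 0.000487 to 0.128 over 13 alternatives. AXL had 88.7, 87.8 and 81.4 CPM in HCCLM3 si-circASH2, against 55.6, 53.7 and 56.6 CPM in HCCLM3 si-NC, without overlap (0.64 ± 0.08, adjusted p = 3.97e-06). In Huh7 AXL was scarce, with 13, 35 and 21 counts in si-circASH2 libraries, against 13, 11 and 26 in si-NC libraries, and did not pass (0.48 ± 0.33, adjusted p = 0.297). It passed in Huh7 without si-NC replicate 3 (0.95, adjusted p = 0.043), in a range of 0.043 to 0.954 over 13 alternatives.

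NT5E (chromosome 6, 85449584 to 85495791) was the 1 target that fell in both lines. It encodes CD73, the surface enzyme that makes adenosine from AMP. NT5E had 49.1, 47.7 and 49.1 CPM in HCCLM3 si-circASH2, against 103, 95.5 and 97.8 CPM in HCCLM3 si-NC (-1.02 ± 0.04, edgeR adjusted p = 6.16e-15). In Huh7 it had 79.6, 80.5 and 79.4 CPM with si-circASH2, against 124, 124 and 124 CPM with si-NC (-0.63 ± 0.04, adjusted p = 8.18e-12). The groups were far apart in both lines, and replicates differed little.

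CRIM1, which encodes a transmembrane protein that binds bone morphogenetic proteins, had 113, 99.2 and 106 CPM in HCCLM3 si-circASH2, overlapping the 109, 107 and 111 CPM of HCCLM3 si-NC (-0.04 ± 0.04). CRIM1 in Huh7 had 81.5, 81.8 and 83.4 CPM with si-circASH2, against 64.3, 66.8 and 66.8 CPM with si-NC, without overlap (0.32 ± 0.04, edgeR adjusted p = 5.12e-06). FJX1, the relative of Drosophila four-jointed, a Golgi kinase of Fat cadherins in that fly, was rare and did not pass in HCCLM3, with 41, 47 and 45 counts in si-circASH2 libraries, against 41, 53 and 58 in si-NC libraries (-0.20 ± 0.26). In Huh7 FJX1 had 17, 15 and 13 counts with si-circASH2, against 4, 4 and 7 counts with si-NC, without overlap, and passed (1.58 ± 0.40, adjusted p = 0.00393). NUAK2, ARHGEF17 and F3 passed in neither line, with log2 fold changes of -0.15 to 0.21. ARHGEF17 was scarce in HCCLM3, with 29, 16 and 22 counts in si-circASH2 libraries, against 23, 14 and 29 in si-NC libraries (0.01 ± 0.25).

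**Figure D3:**
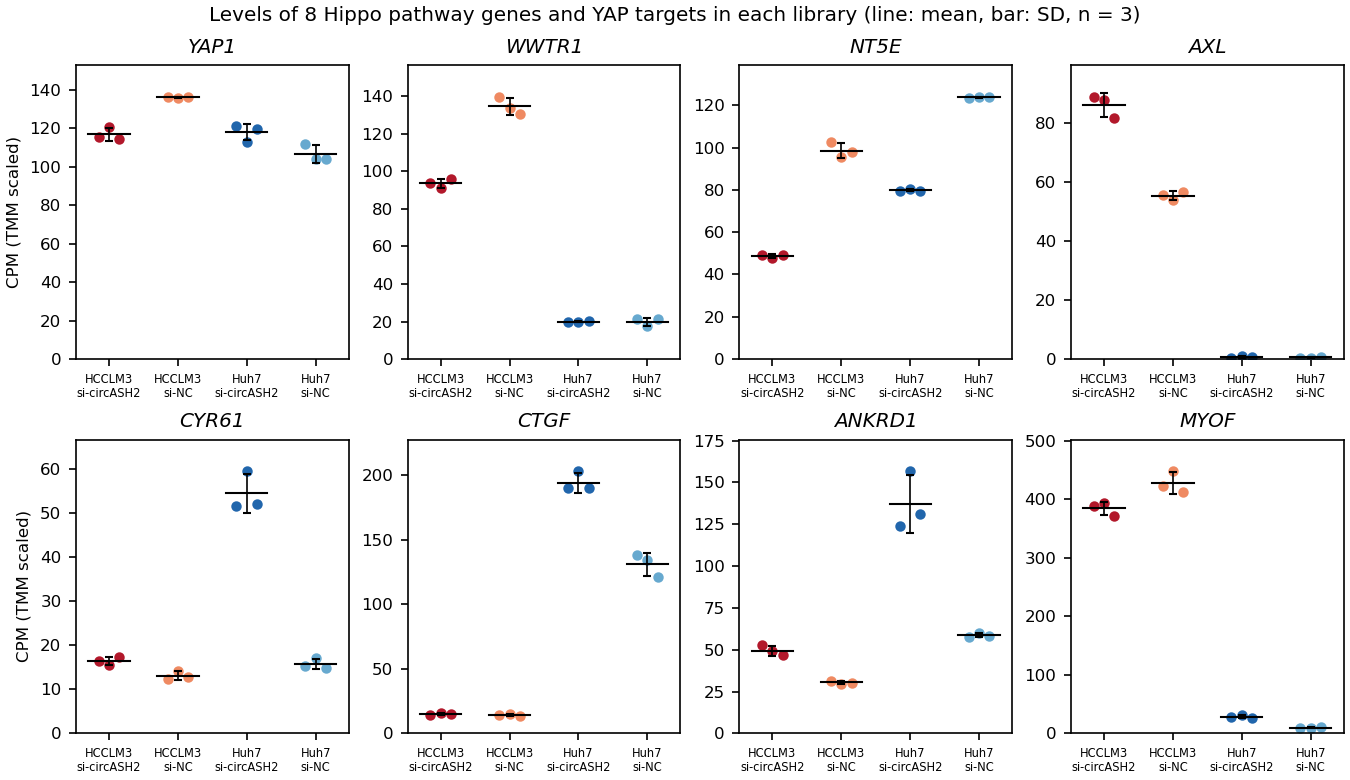
CPM of 8 genes in each library (points), with the mean (line) and SD (bar, n = 3), for HCCLM3 si-circASH2, HCCLM3 si-NC, Huh7 si-circASH2 and Huh7 si-NC from left to right; each axis starts at 0. YAP1 and WWTR1 are lower with si-circASH2 in HCCLM3, CYR61, CTGF, ANKRD1 and MYOF are higher with si-circASH2 in Huh7, and NT5E is lower with si-circASH2 in both lines.

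Fibroblast markers rose mainly in Huh7, and their part in the result was not tested. In HCCLM3 1 of 7 fibroblast markers rose (LUM), which is 14.3%, beside 15.1% of all features tested. Their sum there was 49.5 to 53.8 CPM with si-circASH2 and 35.9 to 38.4 CPM with si-NC. Most of it was LUM, at 48.3 ± 1.8 CPM with si-circASH2 and 34.3 ± 1.64 CPM with si-NC (SD, n = 3 each). COL1A2 and PDGFRB were at 0 in HCCLM3 si-NC. In Huh7 4 of 7 rose (COL1A2, COL3A1, PDGFRB and LUM), which is 57.1%, beside 16.3% of all features tested. Their sum in Huh7 was 59.9 to 61.1 CPM with si-circASH2 and 37.9 to 43.3 CPM with si-NC, and DCN was at 0 in both. Of 10 hepatocyte markers 1 rose in HCCLM3, and 1 rose and 3 fell in Huh7. Of 3 endothelial markers tested 2 fell in HCCLM3 and 0 passed in Huh7. Of 3 leukocyte markers tested 1 rose in HCCLM3, and 1 rose and 1 fell in Huh7. Of all features tested 15.5% fell in HCCLM3 and 15.1% in Huh7.

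The difference between the lines was tested directly as the log2 fold change in HCCLM3 minus that in Huh7. It passed for 17 of the 35 genes, where 20.9% of all features passed: 4 were higher and 13 lower (11.4% and 37.1%), beside 9.6% of all features tested that were higher and 11.3% lower. The median was -0.12 over the 35 genes and -0.02 over all features tested. Among the 11 targets 7 had a lower fold change in HCCLM3 and 4 did not pass, with a median of -0.39. The 7 were MYOF (-1.69 ± 0.07, edgeR adjusted p = 6.48e-13), CYR61 (-1.46 ± 0.11, adjusted p = 1.73e-09), FJX1 (-1.78 ± 0.48, adjusted p = 0.00938), ANKRD1 (-0.53 ± 0.10), CTGF (-0.49 ± 0.08), NT5E (-0.39 ± 0.05) and CRIM1 (-0.36 ± 0.06). For NT5E the negative value means a deeper fall in HCCLM3. AXL did not pass (0.15 ± 0.35, adjusted p = 0.853), so its rise was not shown to differ between the lines, although it passed with limma on log2(FPKM + 1) (0.55, adjusted p = 0.000967, range 0.000967 to 0.971 over 18 alternatives).

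The effectors split in the same test. YAP1 (-0.37 ± 0.06, edgeR adjusted p = 5.23e-05) and WWTR1 (-0.52 ± 0.08, adjusted p = 3.73e-05) had a lower fold change in HCCLM3. Lower and higher here refer to the fold change in HCCLM3 relative to that in Huh7, not to levels. VGLL4 was lower (-0.28 ± 0.09) and TEAD3 higher (0.36 ± 0.12), and neither call held throughout. TEAD3 lost it without Huh7 si-NC replicate 1, Huh7 si-circASH2 replicate 2 or 3, HCCLM3 si-NC replicate 1 or 3, or HCCLM3 si-circASH2 replicate 1 or 3 (adjusted p up to 0.0895). VGLL4 lost it without Huh7 si-NC replicate 3, Huh7 si-circASH2 replicate 1 or 2, HCCLM3 si-NC replicate 1, or HCCLM3 si-circASH2 replicate 2 or 3, and with both FPKM fits (up to 0.1). In the kinase cascade STK4 was lower (-0.19 ± 0.05, not called with the FPKM fits, adjusted p = 0.0581 and 0.0512, range 0.00233 to 0.0581 over 18 alternatives), and the matching rises of LATS2 differed by 0.01 ± 0.10. Among upstream regulators AMOTL2 (-0.46 ± 0.08, adjusted p = 0.000133) and AJUBA (-0.22 ± 0.06; 0.0693 and 0.0648 with the FPKM fits, range 0.00818 to 0.0693) were lower, while AMOTL1 (0.41 ± 0.14), PTPN14 (0.32 ± 0.11) and FAT1 (0.16 ± 0.05) were higher. AMOTL1 lost its call without Huh7 si-NC replicate 1 or 2, Huh7 si-circASH2 replicate 1, HCCLM3 si-NC replicate 1 or 2, or HCCLM3 si-circASH2 replicate 1 or 3, and with both FPKM fits. PTPN14 lost it without Huh7 si-NC replicate 1, Huh7 si-circASH2 replicate 1 or 3, HCCLM3 si-NC replicate 1 or 3, or HCCLM3 si-circASH2 replicate 1 or 2, and with both FPKM fits. FAT1 kept it only without Huh7 si-NC replicate 1, Huh7 si-circASH2 replicate 1, HCCLM3 si-NC replicate 2 or HCCLM3 si-circASH2 replicate 3 among the fits that left out 1 library. Leaving out 1 of the 12 libraries gave 0 to 3 higher and 12 to 14 lower calls.

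Further genes of the pathway came from lists that do not include the 35. Of 47 other upstream genes 44 were tested, of which 7 rose and 11 fell in HCCLM3 and 9 rose and 10 fell in Huh7. The rises were 15.9% in HCCLM3 and 20.5% in Huh7, near the 15.1% and 16.3% of all features tested, and the falls were 25% in HCCLM3 and 22.7% in Huh7, beside 15.5% and 15.1%. MOB4, a subunit of the STRIPAK phosphatase complex that opposes MST kinases, averaged 30.6 ± 1.79 CPM in HCCLM3 si-circASH2 and 48.4 ± 1.39 CPM in HCCLM3 si-NC, and 45.0 ± 2.60 CPM in Huh7 si-circASH2 and 61.1 ± 3.04 CPM in Huh7 si-NC (SD, n = 3 each). It fell in both lines, by 0.66 ± 0.06 in HCCLM3 and 0.44 ± 0.05 in Huh7 on the log2 scale. The polarity scaffold gene DLG5 rose in both, by 0.40 ± 0.04 in HCCLM3 and 0.35 ± 0.04 in Huh7. LIMD1 (-0.29 ± 0.05), another LIM protein gene that acts on LATS, and PARD6B (-0.37 ± 0.06), a polarity gene, had the next smallest p-values in HCCLM3. In Huh7 TNIK (0.42 ± 0.05), a kinase gene of the MAP4K family, also rose.

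Of 25 other YAP targets 24 were tested. In HCCLM3 2 rose and 9 fell (median -0.06), and in Huh7 8 rose and 4 fell (median 0.26). GLI2 was at 0 CPM in every Huh7 library, and RBMS3 and DLC1 in every HCCLM3 library. For these genes no change could be called there or compared between the lines, yet they stay in the counts and medians. In HCCLM3 8.33% rose and 37.5% fell, beside 15.1% and 15.5% of all features tested, and in Huh7 33.3% rose and 16.7% fell, beside 16.3% and 15.1%. The fold change was lower in HCCLM3 for 9 of the 24 and higher for 2 in the test of the difference (37.5% and 8.33%, beside 11.3% and 9.6% of all features tested; median -0.27). CCND1 and CCNE1, genes of cyclins, fell in both lines: CCND1 by 1.96 ± 0.03 in HCCLM3 and 1.59 ± 0.03 in Huh7, and CCNE1 by 0.42 ± 0.06 in HCCLM3 and 0.62 ± 0.06 in Huh7 on the log2 scale. AREG, a ligand of the EGF receptor, averaged 22.3 ± 0.766 CPM in HCCLM3 si-circASH2 and 31.5 ± 1.49 CPM in HCCLM3 si-NC, and 13.9 ± 1.66 CPM in Huh7 si-circASH2 and 3.05 ± 0.632 CPM in Huh7 si-NC (SD, n = 3 each). It fell in HCCLM3 (-0.50 ± 0.09) and rose in Huh7 (2.19 ± 0.12), and the difference was -2.69 ± 0.15 (edgeR adjusted p = 5.59e-12). JAG1, a Notch ligand, did likewise (-0.32 ± 0.04 in HCCLM3 and 0.33 ± 0.05 in Huh7), and TGFB2 rose in Huh7 (0.79 ± 0.08) and did not pass in HCCLM3 (-0.00 ± 0.06). In all 5 of these 24 targets passed in opposite directions. The share of all features that did so was not counted, so 5 is not shown to be unusual. Besides AREG and JAG1 they were TAGLN, NOTCH2 and SOX9, named after their values were seen, of which SOX9 rose in HCCLM3 and fell in Huh7.

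**Figure D4:**
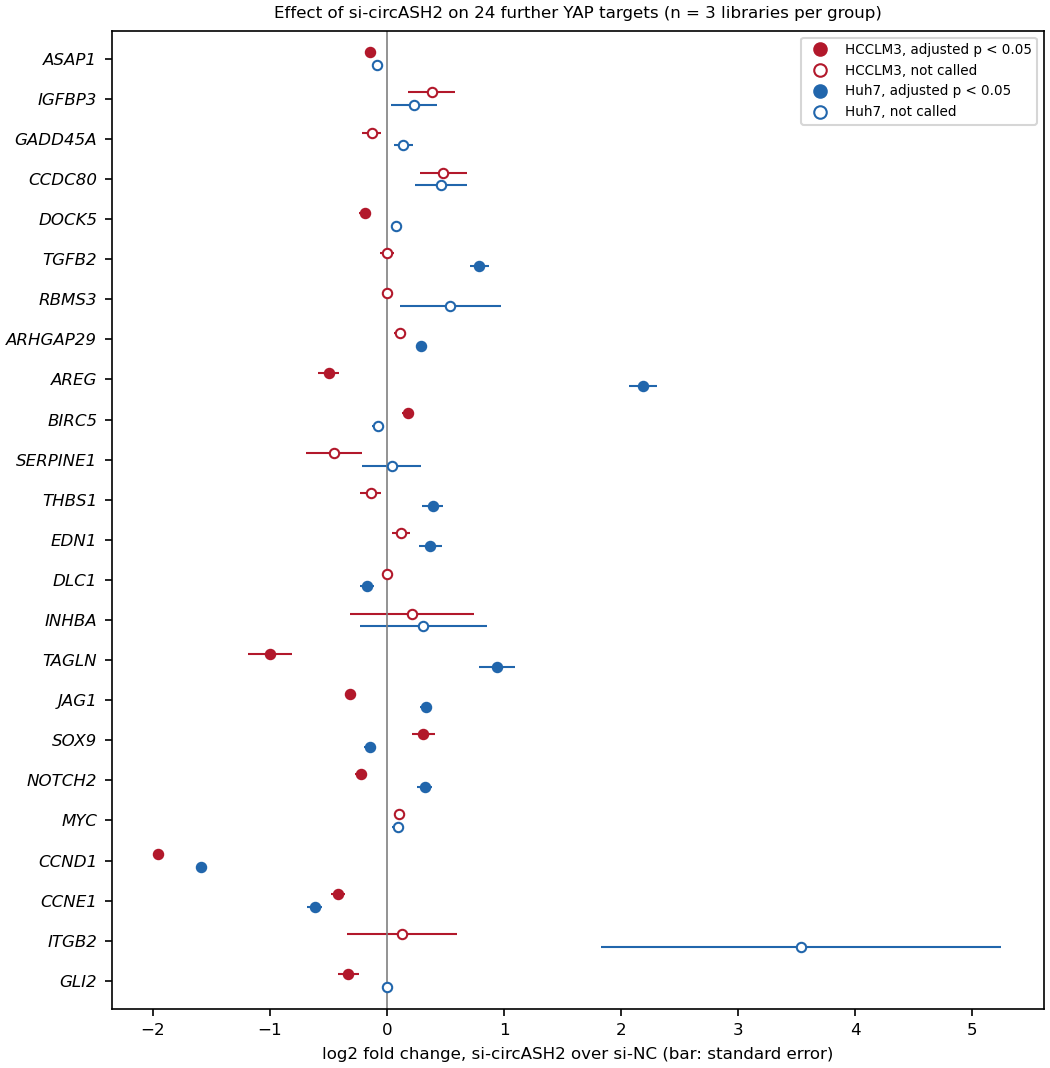
Log2 fold change of 24 further YAP targets, si-circASH2 over si-NC, with HCCLM3 drawn above Huh7 and bars for the standard error (n = 3 libraries per group); filled points have an adjusted p under 0.05 in edgeR's quasi-likelihood test. CCND1 and CCNE1 lie left of 0 in both lines, while AREG, TAGLN, JAG1 and NOTCH2 lie left of 0 in HCCLM3 and right of 0 in Huh7. GLI2 in Huh7, and RBMS3 and DLC1 in HCCLM3, had 0 CPM in every library, so their points there show no measured change.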

How the data were processed

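RNA sequencing of total RNA covered 12 libraries of HCCLM3 and Huh7, 4 groups of 3. The deposited table gives, per the file headers, read counts and FPKM of each feature in each library; the authors did not say in the labels how FPKM were scaled. Per the submitters' processing notes the builds GRCm38, mm10 and hg38 are named, with no role; aligner, counter, annotation and strand: not given in the sources used here. Of all count values, 1938 equalled 1, 6826 equalled 2 and 4777 equalled 3, so the smallest counts may not be plain tallies of single reads; folds of features this low are uncertain. The 3854 features named MSTRG, an assembler's name for loci, have no gene name.

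Features were filtered (filterByExpr, minimum count 10), leaving 16946, and scaled by TMM factors. Quasi-likelihood tests (edgeR 4.0.16 in R 4.3.3, robust, 1 coefficient per group, 8 residual degrees of freedom) were adjusted by Benjamini-Hochberg over all 16946, with a threshold of 0.05. The script was tested on simulated data with known changes: features of low count and the smallest changes were often missed, the share of false calls in simulated Huh7 was above the nominal one, and the limits for passing this test were loosened after its first results, with the fit itself left as it was. CPM are TMM-scaled, and an SE is the size of the log2 fold change over the root of its F statistic. Replicate libraries differed by more than sampling noise, and none was treated as a duplicate.

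The genes and lists were chosen with earlier results of these data known. Per-library values are given for genes past the threshold in at least 1 knockdown with an absolute log2 fold change of at least 0.3, and for YAP1, WWTR1, the TEAD genes and LATS2; from each further list, up to 4 genes with the smallest p per knockdown are named, except 1 that is not reported here. LATS2 and the genes set out for their levels in the control libraries were added after the values were seen. Positions and overlaps are from GENCODE 29, matched by symbol. Alternatives were upper quartile factors, DESeq2 1.42.0, no low-count filter, each line fitted alone, a replicate block, limma 3.58.1 on log2(FPKM + 0.1) and log2(FPKM + 1), and leaving out each library.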

Additional observations from a re-analysis of the deposited data

Results flagged for a closer look

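The effect of si-circASH2 differed between the lines for 17 of the 35 genes, by edgeR's test of the difference (log2 fold change in HCCLM3 minus that in Huh7, adjusted p under 0.05; 20.9% of all features tested passed). Among the targets the differences were -1.78 for FJX1, -1.69 for MYOF, -1.46 for CYR61, -0.53 for ANKRD1, -0.49 for CTGF, -0.39 for NT5E and -0.36 for CRIM1. Among the effectors they were -0.52 for WWTR1, -0.37 for YAP1, -0.28 for VGLL4 and 0.36 for TEAD3. In the kinase cascade STK4 differed by -0.19. Among the upstream regulators they were -0.46 for AMOTL2, -0.22 for AJUBA, 0.16 for FAT1, 0.32 for PTPN14 and 0.41 for AMOTL1. FJX1 had 4 to 17 counts per library in Huh7.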

How the results depend on the processing

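Of the counts over all 35 genes, each kept within 1.5 times the reported count under every alternative run, except the count of genes with a higher fold change in HCCLM3 than in Huh7: 4 as reported, 2 with limma on log2(FPKM + 0.1), and 0 to 3 when 1 library was left out. Leaving out 1 library gave 5 to 6 rises and 9 to 10 falls in HCCLM3, 10 to 12 rises and 4 to 5 falls in Huh7, 12 to 14 lower differences between the lines, and 14 to 15 higher and 15 to 17 lower genes in HCCLM3 si-NC against Huh7 si-NC. Counts by role are small and moved further where a single call changed: the 1 rise in the kinase cascade in HCCLM3 (LATS2) was lost without HCCLM3 si-circASH2 replicate 3, the 1 effector rise in Huh7 (YAP1) without Huh7 si-NC replicate 2 and with both FPKM fits, and 1 of the 2 target falls in HCCLM3 (MYOF) without HCCLM3 si-NC replicate 2 and with both FPKM fits. Counts of the further lists were not recomputed. The difference for AMOTL1 turned to -0.02 (adjusted p = 0.864, range 0.00848 to 0.864 over 18 alternatives) with limma on log2(FPKM + 1), where the pseudocount exceeds its FPKM in HCCLM3 (0.304 ± 0.0170 in si-NC); no other called value changed sign. With limma on log2(FPKM + 1) other called values also shrank by over 1.5 times. NF2 in HCCLM3 (-0.11) did so with log2(FPKM + 0.1) too. In HCCLM3 the knockdown values with log2(FPKM + 1) became 0.25 for AMOTL1, 0.17 for LATS2, -0.12 for AJUBA and -0.10 for NF2. In Huh7 they became 0.21 for WWC1 and 0.15 for FJX1. The difference between the lines became -0.22 for FJX1. Between the control groups the values became 3.48 for AXL, 0.61 for FJX1, 0.27 for PTPN14, -0.28 for AMOT, -0.69 for FAT4, -1.35 for AMOTL1 and -1.84 for ARHGEF17. Over single genes and alternatives, 65 calls were lost with the direction kept, 1 was lost with its sign turned (AMOTL1, above), 15 were gained and 1877 values kept their side of the threshold. Same-numbered libraries of a line did not deviate together (correlations of 0.00 to 0.01 in HCCLM3 and -0.03 to 0.04 in Huh7), so the numbers were not taken to pair them; with a replicate block 6 genes rose and 10 fell in HCCLM3, 11 rose and 5 fell in Huh7, 4 differences were higher and 13 lower, and 15 genes were higher and 15 lower between the control groups. With 3 libraries a group, FAT4, AMOT and ARHGEF17 in HCCLM3 and AXL and FJX1 in Huh7 lie too near the counting floor for small changes to be detectable.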
